A study of Rattus norvegicus with 2 samples.

Results

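C1q-positive macrophages were 152 of the 14858 cells kept from 2 single-cell RNA libraries of the rat meniscus, a wedge of fibrocartilage in the knee joint. Their selection used 4 limits on each barcode: at least 500 genes detected, at most 20% of unique molecular identifiers (UMIs, one count per captured transcript) in mitochondrial genes, at least 5 UMIs summed over C1qa, C1qb and C1qc, and fewer than 20 UMIs of the neutrophil granule genes Camp and Ngp. The aged library held 114 such cells among 6085 kept, and the young library 38 among 8773. One library was made per age, from tissue digested with protease and collagenase P and sorted for viable cells; strain, sex, age in weeks and the number of animals are not in the labels. No test across animals was therefore possible, and every interval given is an exact 95% interval that covers counting error only.

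C1q is the recognition molecule of the classical complement pathway, assembled from the products of C1qa, C1qb and C1qc. Unlike most complement proteins, which come largely from the liver, C1q is made mainly by macrophages and related myeloid cells. In joints, tissue macrophages clear dead cells and debris through scavenger and bridging receptors, present antigen on MHC class II and release chemokines and cytokines. In marrow, macrophages of erythroblastic islands engulf the nuclei expelled by red cell precursors and recycle heme iron.

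The upstream sequences of C1qa and C1qb are shown first because these genes chose the cells. Both come from RefSeq on the GRCr8 build, each covering the 250 bases before the annotated start, printed 5′ to 3′ on the gene's strand, which is the minus strand for both. C1qa lies at chr5:154419934-154420183 and C1qb at chr5:154407828-154408077. Capitals mark the core bound by PU.1 (GAGGAA), a macrophage transcription factor encoded by Spi1, searched on both strands.
C1qa: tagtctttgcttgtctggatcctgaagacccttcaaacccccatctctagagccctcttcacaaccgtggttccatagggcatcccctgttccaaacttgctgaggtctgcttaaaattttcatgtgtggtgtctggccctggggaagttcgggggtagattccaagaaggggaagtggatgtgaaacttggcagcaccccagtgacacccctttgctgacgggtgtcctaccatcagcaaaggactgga
C1qb: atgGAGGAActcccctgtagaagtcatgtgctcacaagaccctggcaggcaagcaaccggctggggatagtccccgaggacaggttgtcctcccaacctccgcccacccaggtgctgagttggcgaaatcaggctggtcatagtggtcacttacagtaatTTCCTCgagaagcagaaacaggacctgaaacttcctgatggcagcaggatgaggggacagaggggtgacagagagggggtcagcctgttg
The C1qb window held 2 PU.1 cores, at -247 and -90 (negative positions count upstream from the start), and the C1qa window had no match to these letters. Among 33469 rat promoters of this length, 23.3% held a PU.1 core, so such matches are common. In the macrophages Spi1 stood at 336 CPM (UMIs per 1000000 UMIs of the summed cells) in the aged and 360 in the young library.

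A pair of further windows is shown for genes described in the age comparison: Cxcl2, a neutrophil-attracting chemokine, at chr14:17467256-17467505 and Bst2, an interferon-inducible membrane protein that tethers virus particles, at chr16:18254968-18255217, both on the minus strand of GRCr8. Capitals mark the NF-kB consensus in Cxcl2 and the interferon response element (GAAA, any 2 bases, GAAA) in Bst2, where 2 matches overlap.
Cxcl2: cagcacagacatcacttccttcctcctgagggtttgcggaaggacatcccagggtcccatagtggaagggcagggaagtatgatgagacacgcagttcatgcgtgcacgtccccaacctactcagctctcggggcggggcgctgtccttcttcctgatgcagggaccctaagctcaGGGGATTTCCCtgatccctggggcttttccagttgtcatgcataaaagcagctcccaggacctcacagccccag
Bst2: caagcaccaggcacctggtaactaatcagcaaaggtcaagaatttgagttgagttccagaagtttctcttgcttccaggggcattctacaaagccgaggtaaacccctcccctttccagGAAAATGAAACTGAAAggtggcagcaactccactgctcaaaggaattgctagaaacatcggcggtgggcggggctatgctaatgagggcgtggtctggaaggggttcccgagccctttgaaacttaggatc
Across all rat promoters the NF-kB consensus occurred in 3.54% and the interferon response element in 3.41%. Of the other windows searched, those of Oasl2, Rsad2, Ms4a7 and Vcam1 held the latter and those of Oasl and Vcam1 the former, while the window of Il1b held neither.

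Their median was 5726.5 UMIs and 1673.5 genes in the aged library and 11091 UMIs and 2649.5 genes in the young library, against library medians of 3686 and 3846 UMIs over all kept cells and 12290.5 and 10224 over the monocyte-type cells described further on. The macrophages summed to 863595 and 472197 UMIs. Of all kept cells, 10 barcodes occurred in both libraries, and none of these was a macrophage. Some genes differed widely between the libraries, both in the macrophages and in all other kept cells pooled. Hbb was at 12776 CPM in aged and 292 in young macrophages, and at 4008 and 88.0 in all other cells. The beta-globin gene LOC100134871 went the other way, at 2837 and 38433 CPM in macrophages and 988 and 11217 in other cells. The uncharacterised AABR07060872.1 took 63571 CPM of the aged and 701 of the young macrophages, and 174600 and 10872 of other cells. Within the macrophages these differences lay in few cells: in the higher library 1 cell held 33.3% of the Hbb UMIs, 36.1% of those of AABR07060872.1 and 40.0% of those of LOC100134871. In group 1 of those described further on, Hbb was at 51.7 aged and 338 young CPM and AABR07060872.1 at 1254 and 1757, and in group 6 LOC100134871 was at 8559 and 300.5.

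C1q expression was close to all or none. Of the kept cells, 5874 aged and 8574 young had no C1q UMI, 84 and 147 had a single one, 10 and 10 had 2, 1 and 1 had 3, and 1 and 3 had 4. The macrophages had a median of 121 C1q UMIs (5 to 542) in the aged and 163 (6 to 545) in the young library, and held 98.6% and 97.5% of all C1q UMIs in kept cells. All 3 genes were detected together in 107 of 114 and 36 of 38 cells. These counts describe the selection and were not tested. Close to the limit, 7 aged and 2 young macrophages had 5 to 9 C1q UMIs; just below it lay 2 aged and 4 young cells with 3 or 4. The aged macrophages with 5 to 9 C1q UMIs had 0 to 12 Cd68 UMIs and 0 to 178 Lyz2 UMIs, and the young ones 3 to 8 and 53 to 141. The young cells below the limit had 0 to 16 Cd68 UMIs and 22 to 504 Lyz2 UMIs, and 1 of them had 1366 UMIs of Camp and Ngp. One aged cell had enough C1q and was left out for Camp and Ngp.

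**Figure D1:**
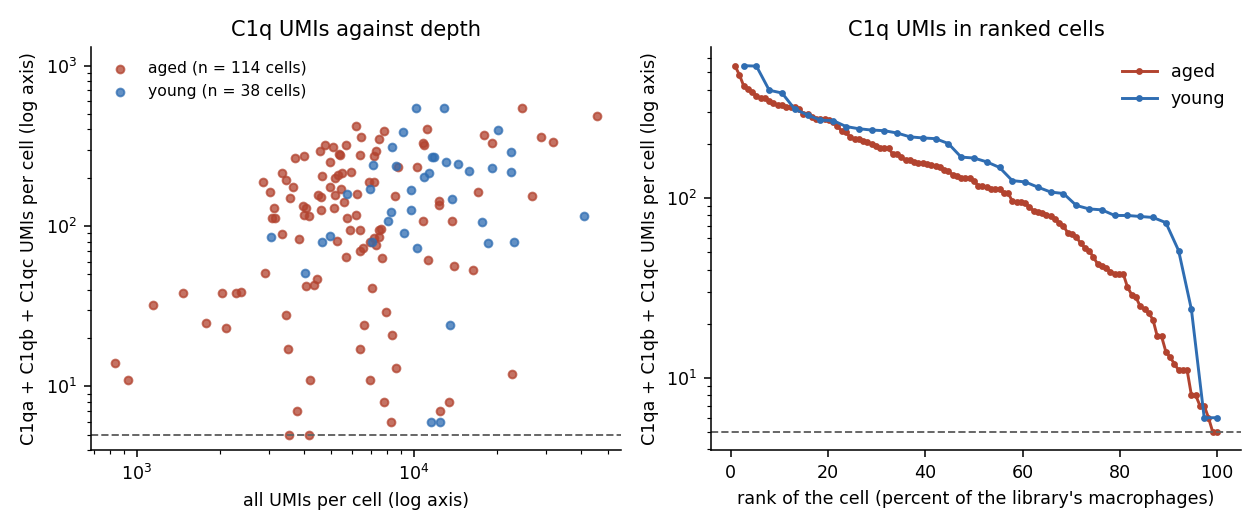
C1q UMIs per macrophage against all UMIs of the cell (left) and in cells ranked by C1q (right), with log axes as labelled, 1 point per cell and the limit of 5 UMIs dashed. Most cells of both libraries lie far above the limit, around the medians of 121 (aged) and 163 (young) UMIs.

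The levels of the 3 genes, which chose the cells, are given as a description. C1qa was at 7282 CPM in aged and 5474 in young macrophages, C1qb at 6328 and 5117, and C1qc at 5987 and 4280. Across cells, which share a library, the level of C1qa scaled to each cell's total UMIs followed that of C1qb. Spearman's rho was 0.94 over 114 aged and 0.88 over 38 young cells. C1qa followed C1qc with 0.93 and 0.84. The log2 ratio of aged over young was 0.41 for C1qa (0.35 to 0.48), 0.31 for C1qb and 0.48 for C1qc.

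The other 4 markers of the label were present. Cd68, a lysosomal membrane glycoprotein, was detected in 102 of 114 cells from the aged and 38 of 38 from the young library, at 899 and 834 CPM against 55.9 and 49.5 in all other kept cells. Mrc1, the mannose receptor, was found in 92 and 36 cells, at 580 and 813 CPM against 3.64 and 1.84. Cd163, the scavenger receptor for haemoglobin bound to haptoglobin, was in 41 and 20 cells, at 162 and 180 CPM against 0.38 and 0.18. Ms4a7 was in 64 and 24 cells, at 213 and 193 CPM against 0.21 and 0.13. All of them stood above the level of other cells in both libraries, and the libraries differed by less than 2-fold in each. After thinning each cell to 2000 UMIs, the share of macrophages with Mrc1 was 67.9% (aged) and 65.8% (young), against 80.7% and 94.7% unthinned. B lineage cells, which should lack it, showed Mrc1 in 0.139% and 0.0937% after the same thinning, at unthinned median depths of 3106 and 3649 UMIs. Of 17 dendritic cell genes, 8 had no UMI in any of the 152 cells, Flt3, Xcr1 and Zbtb46 among them, which allows a share of cells with a UMI of up to 1.97%. The list as a whole took 0.434% of aged and 0.524% of young macrophage UMIs, against 0.119% and 0.0723% in other cells, and 106 and 37 macrophages held at least 3 of its UMIs. Monocyte genes took 0.412% and 0.296%, against 1.23% and 1.45% in monocyte-type cells. Mast cell and basophil genes had 1 UMI in each library, and 8 of the 10 in the files had none.

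The macrophages were next set beside other mononuclear myeloid cells, 192 aged and 167 young cells with no C1q UMI and at least 3 UMIs of Csf1r and Cx3cr1. These monocyte-type cells also carried progenitor genes such as Ctsg. The macrophages were chosen by C1q, so this comparison is a description. Of 5067 genes measured in both libraries, 261 (5.15%) were at least 2-fold higher in macrophages in both libraries and 480 (9.47%) lower in both. Apoe, which carries lipids between cells, was at 14501 and 13903 CPM in macrophages and 23.5 and 48.7 in monocyte-type cells. Pltp, a phospholipid transfer protein, was at 2466 and 1629 CPM against 17.4 and 9.99. Folr2, the folate receptor of tissue macrophages, was at 1051 and 828 CPM against 5.03 and 1.25.

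Surface and secreted products followed. Lyve1, a hyaluronan receptor, was at 567 and 580 CPM against 3.35 and 13.7. Fcgrt, the recycling receptor for IgG, was at 807 and 879 CPM against 22.1 and 9.58. Igf1, a growth factor, was at 219 and 248 CPM in macrophages, with 10 and 18 UMIs in the monocyte-type cells. Asgr2 and Fcmr were also among the 10 genes chosen for the largest ratios, with log2 ratios of 5.75 and 6.85 in the aged and 7.40 and 6.93 in the young library. Ltc4s, which makes leukotriene C4, was at 461 and 684 CPM, with 0 UMIs in aged and 1 UMI in young monocyte-type cells. Genes of granulocyte precursors were among those furthest below: Ctsg, neutrophil cathepsin G, had 1 and 5 UMIs in macrophages against 5566 and 3231, and Mcpt8l3 had 1 and 1 against 2293 and 1900. The Ctsg value depended on the comparison cells, since leaving out those with progenitor genes moved its log2 ratio from -10.65 to -1.04 in the aged and from -6.99 to 0.51 in the young library.

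Lists fell on separate sides. A gene counted here with at least 50 UMIs summed over both kinds of cell in each library. Genes scarce in monocyte-type cells reach that minimum through the macrophages alone, so their counts describe the cells and are no test. Of resident tissue macrophage genes, 11 of the 21 in the files were measured, and all 11 were at least 2-fold higher in macrophages in both libraries. Of lysosome genes 16 of 36 were. The MHC class II list, which also holds Cd86, gave 5 of 8 and erythroblastic island genes 7 of 9. General macrophage genes gave 8 of 15, and the shared receptor Csf1r, which also chose the monocyte-type cells, was 1.37 and 1.53 higher on the log2 scale. Cell cycle genes were lower in both libraries for 17 of 23, and none was higher. MHC class I gave none of 14 in either direction.

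**Figure D2:**
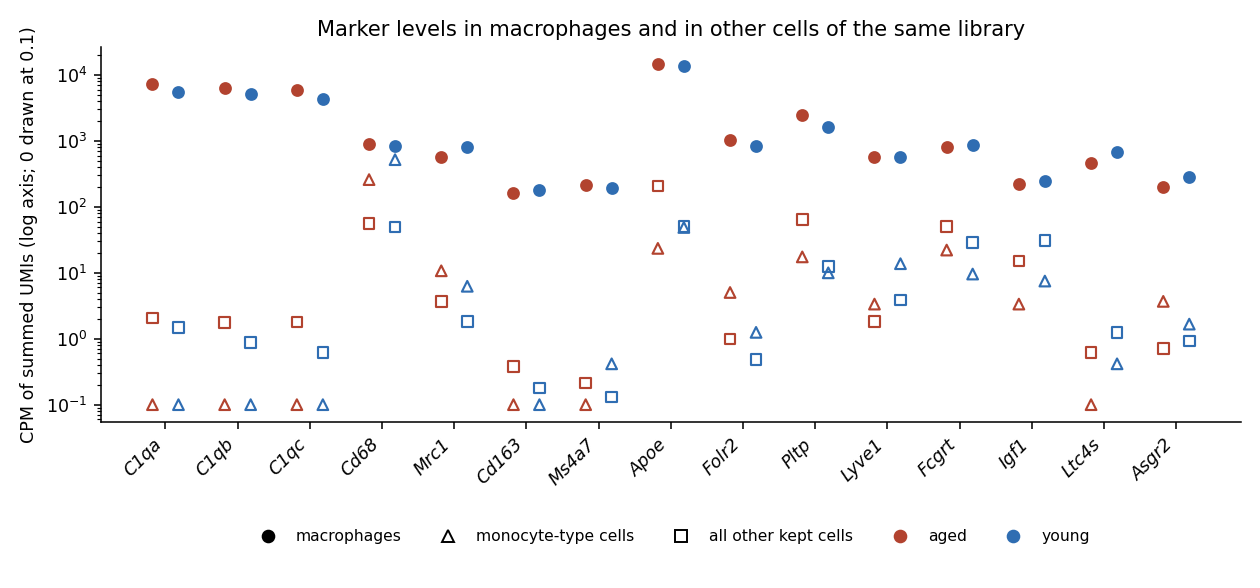
CPM of summed UMIs (log axis, 0 drawn at 0.1) of 15 genes in macrophages (filled circles), monocyte-type cells (triangles) and all other kept cells (squares), aged in red and young in blue. Every gene is highest in the macrophages of both libraries; Cd68 is nearest to the monocyte-type cells, at 834 against 520 CPM in the young library.

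The macrophages themselves were not uniform. Clustered without C1q, mitochondrial, ribosomal, haemoglobin and immunoglobulin genes, they formed 6 groups of 12 to 37 cells at the resolution used, 2 at a lower and 8 at a higher one. The groups are described by their leading genes, without a test, because those genes made them.

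Group 1 (37 cells) was led by Vsig4, a complement receptor of resident macrophages, with Cxcl13, a B cell chemokine, and C6, a terminal complement component. Vsig4 stood at 958 CPM there and 20.5 CPM or less in each other group, and Cxcl13 at 2909 CPM. Cxcl13 had 890 UMIs in the aged cells of the group and 0 in its 7 young cells, while 43 young UMIs lay in group 2. Lyve1 (1369 CPM) and Trem2, a lipid-sensing receptor (1392 CPM), were also highest in it. Over all macrophages, Vsig4 came from few cells: 12 aged cells held 279 UMIs and 1 young cell held 21. Fibroblast genes reached 3 UMIs in 27 of these 37 cells, and Fn1 was at 954 CPM.

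Group 2 (32 cells) was rich in MHC class II. Cd74, the invariant chain that guides class II molecules, was at 23793 CPM, RT1-Da at 15793 and RT1-Db1 at 13621. Class II genes made up 6.43% of its UMIs, against 0.44% in group 3. The share was alike in the aged (6.02%) and young (6.93%) cells of the group.

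Group 3 (30 cells) had the highest C1q, at 4.13% of UMIs, and was led by Apoe (53567 CPM), Pltp (7659), F13a1, the coagulation factor XIII A subunit (1677), and Ccl24, an eosinophil chemokine (847). Mrc1 (1824 CPM) and Cd163 (491 CPM) were highest here. Resident tissue macrophage genes took 1.64% of UMIs and lysosome genes 3.90%, the most of the 6 groups for both lists. Cells rich in class II were poor in resident genes: across cells the 2 list shares had Spearman's rho -0.44 in 114 aged and -0.33 in 38 young cells, which share library and the same total.

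Group 4 (26 cells) carried genes of erythroblastic island macrophages. Vcam1, which holds erythroblasts to the macrophage, was at 547 CPM against 94.3 or less elsewhere. Spic, a transcription factor induced by heme, was at 167 CPM, Hmox1, heme oxygenase, at 1148 and Cd5l at 441. The iron storage genes Fth1 and Ftl1 were highest here, at 27143 and 18895 CPM. Slc40a1, the iron exporter, had no UMI in any kept cell of either library. Erythroid genes, counted with Hbb but without LOC100134871, made up 12.6% of this group's UMIs, 9.34% in its aged and 22.5% in its young cells. Few cells carried them: they took 66.3%, 32.1%, 17.8% and 7.17% of single aged cells and 41.3%, 30.4% and 29.2% of single young ones. Every other cell of the group held 1.60% or less. Whether droplets with more than 1 cell carried them was not tested. Igh-6, an immunoglobulin heavy chain gene, was at 20286 CPM, with 84% of the aged UMIs in 1 cell.

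Group 5 (15 cells) held inflammatory genes, and all its cells were aged. Il1b, the cytokine interleukin-1 beta, was at 5028 CPM against 824 or less elsewhere. Cxcl2 was at 14157 CPM, Ccl3, a chemokine for monocytes and T cells, at 5698, and Ptgs2, the inducible cyclooxygenase, at 605. Il1rn, the antagonist of the interleukin-1 receptor, was at 621 CPM, and Acod1, which makes itaconate, at 686 with 85 UMIs in 3 cells. Class II genes took 6.96% of UMIs and C1q 0.757%. No young cell fell in it. Its leading genes Il1b, Ptgs2 and Vegfa were also higher in the aged library in all other cells, by 3.05, 1.73 and 1.21 on the log2 scale. The lack of young cells is therefore not read as a difference between ages.

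Group 6 (12 cells, 6 of each age) was led by cell cycle genes: Stmn1, which destabilises microtubules, was at 1671 CPM, Hmgb2 at 3105 and Mki67 at 335. Its median depth was 16048 UMIs, the deepest of the groups. B lineage genes Spib, Fcrla and Cd24 were among its leading genes, Cd79b was at 346 CPM, and 7 of the 12 cells had at least 3 B lineage UMIs. Whether droplets with 2 cells formed this group was not tested; no doublet caller was run.

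**Figure D3:**
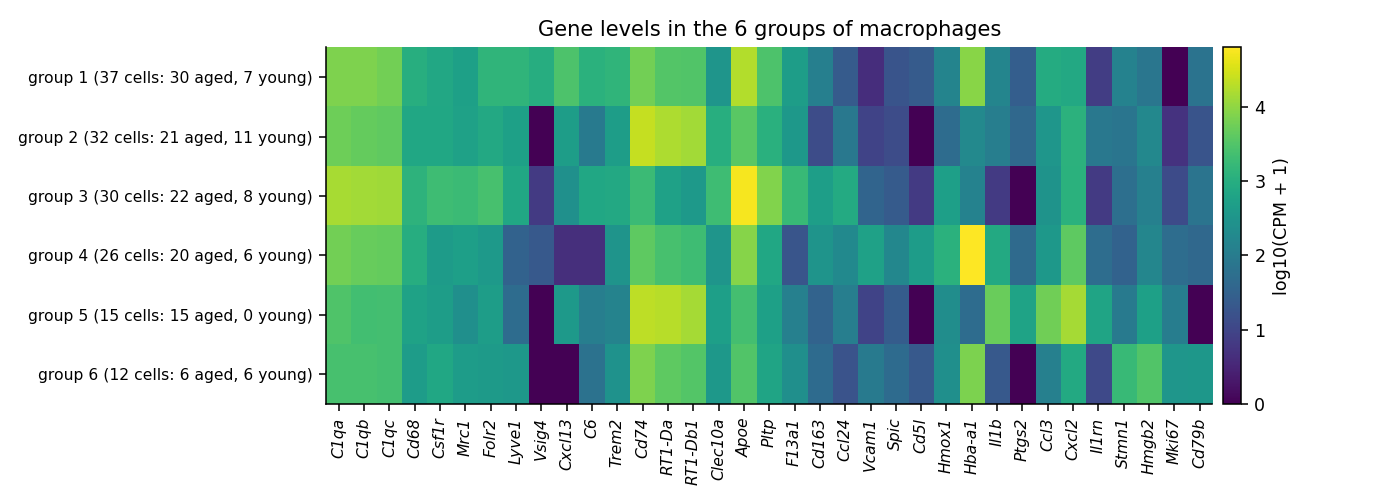
Level of the genes named on the axis in each of the 6 groups of macrophages, as log10(CPM + 1) of summed UMIs (colour). C1qa, C1qb and C1qc are high in every group, while Vsig4, class II genes, Apoe, Vcam1 with Hba-a1, Il1b and Stmn1 mark different groups.

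Genes of other cell types were counted in all macrophages. Erythroid genes were 2.85% of UMIs in the aged and 4.32% in the young macrophages, against 0.984% and 1.16% in other cells. At least 3 such UMIs were held by 43 of 114 and 38 of 38 cells. This list holds Hbb but not the beta-globin gene LOC100134871, which was higher in the young library by the values given above. The shares thus leave out part of the young library's globin. For Hba-a1, thinned shares were 16.5% of aged and 47.4% of young macrophages, and 18.3% and 57.4% of B lineage cells, so most macrophages were at the level of cells that do not make globin. S100a8, a neutrophil gene, behaved alike at 15.6% and 42.1% of macrophages and 20.1% and 57.8% of B lineage cells. B lineage genes reached 3 UMIs in 10 aged and 11 young macrophages, plasma cell genes in 8 and 6, neutrophil genes in 17 and 28, and T or NK genes in 8 and 2. Only 73 aged and 5 young macrophages held fewer than 5 UMIs of each of 6 lists (B lineage, erythroid, T or NK, fibroblast, chondrocyte, endothelial), so few young cells remain without them. Erythroid genes alone reached 5 UMIs in 25 aged and 31 young macrophages. The limit is a fixed count that takes no account of depth, and the median depth was 5726.5 UMIs in aged and 11091 in young macrophages.

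Macrophages made up 1.87% of kept aged cells (1.55 to 2.25) and 0.433% of kept young cells (0.307 to 0.594). The share depends on how many other cells were recovered, and the young library held 6405 B lineage cells of at least 2000 UMIs against 2158 in the aged one. In this sort, more macrophages and fewer other cells cannot be told apart. With at least 20 C1q UMIs required, the shares were 1.63% and 0.410%.

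Within the macrophages, most measured CXC chemokine and interferon response genes, and some cytokine, NF-kB and MHC class I genes, were at least 2-fold higher in the aged library. Most measured cell cycle genes were higher in the young one, and lysosome and macrophage identity genes were less than 2-fold apart. Of 2898 genes with at least 50 summed UMIs, 169 (5.83%) were at least 2-fold higher in the aged macrophages and 140 (4.83%) at least 2-fold lower. The median log2 ratio over all of them was -0.18. TMM scaling raised every log2 ratio by 0.28, to 249 genes higher and 54 lower, so small differences have no fixed sign. Calls are by size alone. Of CXC genes 6 of 8 and of interferon genes 11 of 17 were higher. Without group 5 these counts were 4 of 8 and 10 of 16, beside 123 of 2662 over all genes measured. In the 73 aged and 5 young cells with few UMIs of other types they were 3 of 8 and 1 of 6. All genes measured gave 137 of 1031 there, and most genes of these lists were no longer higher. That limit is a fixed count in cells of unlike depth, so the cells it keeps need not be the cleaner ones.

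Interleukin-1 and eicosanoid genes stood out. Il1b had 930 UMIs spread over 44 aged macrophages and 14 UMIs over 4 young ones. These are 1077 and 29.7 CPM, and the log2 ratio was 5.18 (4.43 to 6.06). It was also higher in the aged library outside macrophages, by 3.05 in all other cells and 3.49 in monocyte-type cells. Ptgs2 had 105 UMIs over 17 aged macrophages and 1 UMI in the young library. Without group 5 the log2 ratio of Il1b was 3.81 and that of Ptgs2 4.26. Of 11 measured cytokine and eicosanoid genes, 5 were at least 2-fold higher and none lower, with a median of 0.97; without group 5 the counts were 2 higher and 1 lower of 6, with a median of -0.18. Tgfb1, a cytokine that restrains inflammation, was at 197 aged and 379 young CPM.

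Chemokines went the same way in most cases. Cxcl2, whose upstream window is printed above, was at 3821 and 1131 CPM, and its ratio was 1.76 (1.62 to 1.89) against 1.99 in all other cells. The difference did not hold in every group: Cxcl2 was at 923 aged and 311 young CPM in group 1 and 5332 and 273 in group 4, but at 949 and 1521 in group 2, 251 and 2185 in group 3 and 173 and 1089 in group 6. Cxcl1 was at 1788 and 443 CPM. Cxcl13 was at 1219 and 93.2 CPM, with 38.2% of its aged UMIs in 1 cell and 61.4% of its young UMIs in another. Of 8 CXC genes, 6 were at least 2-fold higher and none lower, with a median of 1.71; the median was 1.05 without group 5 and 0.51 in cells with few UMIs of other types. The list's share of UMIs was higher in the aged cells of groups 1, 2 and 4 and lower in those of groups 3 (0.251% against 0.560%) and 6 (0.105% against 0.238%). Pf4, a platelet and macrophage chemokine, was lower at 456 and 748 CPM.

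Among CC chemokines 4 of 11 were higher and 1 lower. Ccl4 was at 2288 and 555 CPM and Ccl3 at 1319 and 224. Ccl5 had 138 UMIs in 5 aged cells and none in the young ones, at least 25.2-fold higher against a floor of 3 young UMIs. One cell held 58% of its UMIs, and 2 aged cells of group 2 held 133 UMIs. T or NK genes reached 3 UMIs in 4 cells of that group, and whether RNA of such cells brought Ccl5 was not tested. Ccl7, a monocyte chemokine, was the exception at 162 and 529 CPM, with -1.71 (-2.02 to -1.40) on the log2 scale, while in all other cells it was 2.70 higher in the aged library. Ccl2, its close relative, was at 995 and 1048 CPM. The Ccl7 ratio turned to 1.45 in cells with few UMIs of other types, where 5 young cells remained.

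**Figure D4:**
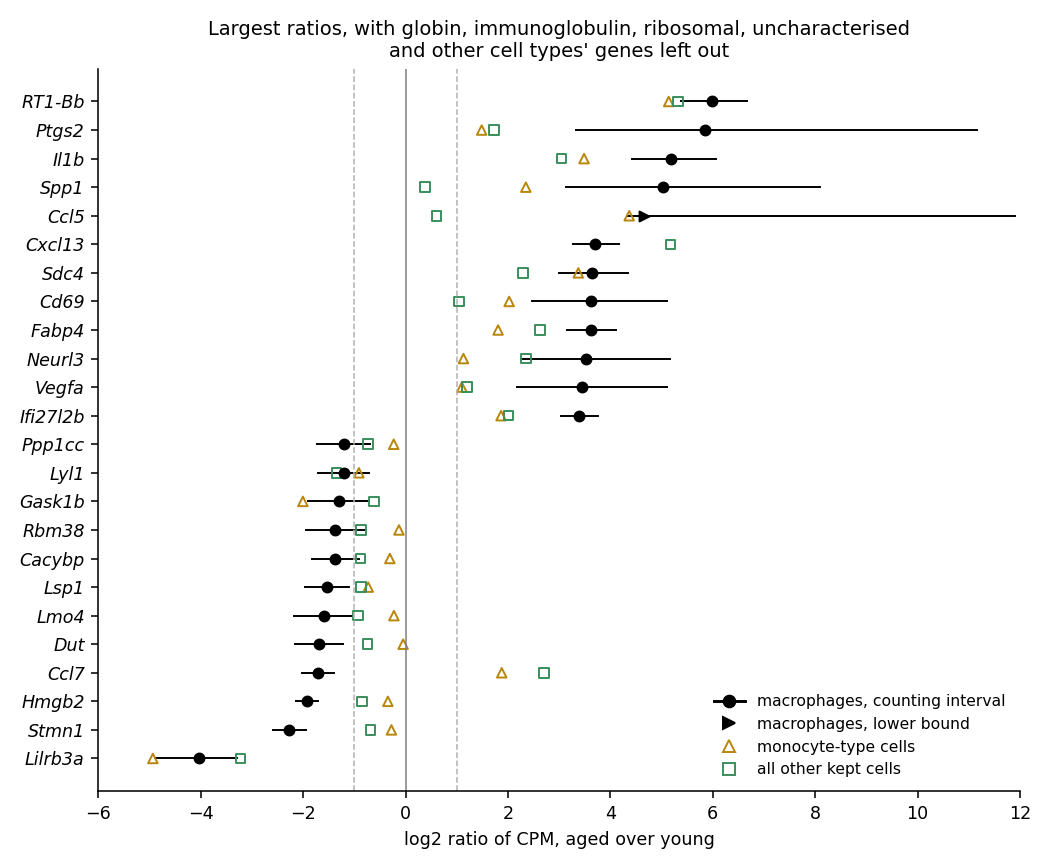
Log2 ratio of CPM, aged over young, for the 12 genes with the largest ratios in each direction once globin, immunoglobulin, mitochondrial, ribosomal, C1q and uncharacterised genes and those of other cell types' lists are left out: macrophages as black points with counting intervals (Ccl5 as a lower bound), monocyte-type cells as triangles, all other kept cells as squares. RT1-Bb is higher and Lilrb3a lower in the aged library in all 3 kinds of cell, while Ccl7 is lower in macrophages and higher in the others.

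Interferon response genes were higher in the aged macrophages. Isg15, a ubiquitin-like protein induced by interferon, was at 127 and 12.7 CPM, with UMIs in 31 of 114 aged and 4 of 38 young cells. Oasl2 was at 111 and 14.8 CPM, and Ifi27l2b at 1484 and 142 CPM, in 89 and 23 cells. Bst2 was at 521 and 273 CPM, 0.93 higher on the log2 scale (0.65 to 1.23). Rsad2 did not follow, with a ratio of -0.39 (-1.13 to 0.36).

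Of 17 measured interferon genes, 11 were at least 2-fold higher and none lower, with a median of 1.45. In cells with few UMIs of other types 1 of 6 was higher, beside 137 of 1031 over all genes measured, and the list median was 0.59. The list took 0.512% of aged and 0.166% of young macrophage UMIs, and 0.228% and 0.0858% in all other cells. Per cell, the aged median was 0.420% (0.047% to 3.83%) and the young median 0.137% (0.034% to 0.855%), so the ranges overlapped. In each of the 5 groups with cells of both ages the aged share was the higher: 0.62% against 0.16% in group 1, 0.36% against 0.11% in group 2, 1.03% against 0.34% in group 3, 0.41% against 0.14% in group 4 and 0.24% against 0.13% in group 6.

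Antigen presentation genes were taken as an MHC class I list and a class II list, the latter also holding Cd86, a costimulatory ligand. B2m, the light chain of MHC class I, was at 9302 and 4473 CPM, and RT1-A1, a class I heavy chain, at 1449 and 301. RT1-A2 ran the other way at 791 and 1247 CPM. Class I genes are near copies, and how reads were divided among them was not tested. Of 13 class I genes 3 were at least 2-fold higher and none lower, with a median of 0.76. Of 8 genes of the class II list 2 were higher, RT1-Bb and Cd86, and none lower, with a median of 0.30. In cells with few UMIs of other types 5 of 6 were higher, beside 137 of 1031 over all genes measured. Cd74 was at 9680 and 10061 CPM and RT1-Da at 6934 and 6154. RT1-Bb, a class II beta chain, had the highest ratio of the 12 plotted genes with more in the aged library, at 2966 and 46.6 CPM, or 5.99 on the log2 scale (5.39 to 6.67). Its ratio was 5.32 in all other cells and 5.14 in monocyte-type cells, and its partner chain RT1-Ba was at 2537 and 2202 CPM. Lilrb3a, a paired immunoglobulin-like receptor, mirrored it at 18.5 and 305 CPM, with -3.22 in all other cells and -4.93 in monocyte-type cells.

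Stress genes showed no common direction. Atf3, a stress-induced repressor, was at 543 and 256 CPM, 1.08 higher on the log2 scale (0.79 to 1.38), though the share of cells with a UMI was alike, at 57 of 114 and 20 of 38, and 30.3% and 26.3% after thinning; B lineage cells gave 4.45% and 1.33%. A single young cell held 36% of the young Atf3 UMIs. The direction differed by group: Atf3 was at 1026 aged and 81.1 young CPM in group 1 and 501 and 137 in group 4. It was at 356 and 634 in group 2, 41.9 and 307 in group 3 and 17.3 and 75.1 in group 6. In monocyte-type cells its log2 ratio was -0.18. Fos was at 1318 and 2258 CPM and Jun at 1266 and 1690, while Nr4a1 was at 154 and 27.5. Of 22 immediate early genes 5 were at least 2-fold higher and 1, Rhob, lower. In the NF-kB and inflammasome list 6 of 16 were higher and none lower, among them Nfkbia, the NF-kB inhibitor induced by NF-kB itself, at 1868 and 758 CPM. Without group 5 that count was 1 of 12.

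Among growth arrest genes, Cdkn1a, encoding p21, had 66 UMIs over 34 aged macrophages and 12 UMIs over 8 young ones. The log2 ratio was 1.59 (0.69 to 2.61), beside 1.72 in all other cells. In macrophages with few UMIs of other types it was 0.24. Cdkn2a had 12 UMIs over 5 aged macrophages and 0 in the young library, at least 2.19-fold higher against the floor. Both rest on few molecules. Of 12 genes of the senescence and arrest list 4 were at least 2-fold higher and none lower, with a median of 0.13.

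Most measured cell cycle genes were lower in the aged macrophages. Stmn1 had 112 UMIs in 21 aged and 295 in 19 young cells. Its levels were 130 and 625 CPM, and the ratio -2.27 (-2.60 to -1.95). Hmgb2 was at 299 and 1131 CPM. Of 7 measured cell cycle genes none was at least 2-fold higher and 4 were lower, with a median of -1.19. B lineage genes moved with them: 4 of 4 measured were at least 2-fold lower in the aged macrophages, with a median of -2.13, and the list took 0.0149% of aged and 0.0606% of young macrophage UMIs, while in all other cells the cell cycle list was at 0.618% and 1.05%. Without groups 4 and 6 the cell cycle median was 0.09, 1 of 3 measured cell cycle genes was lower and no B lineage gene was measured. Whether B lineage RNA contributed was not tested.

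Lysosome and macrophage identity genes were less than 2-fold apart. Of 33 lysosome genes none was 2-fold apart, with a median of 0.00, which TMM scaling would move to 0.29; Ctsb, a cathepsin, was at 3109 and 2903 CPM. Macrophage identity genes gave none of 15, with Csf1r, the receptor for the growth factor CSF1, at 724 and 981 CPM and Lyz2, lysozyme, at 16859 and 15032. Resident tissue genes gave 2 of 15 higher, Vsig4 and Cd5l, with a median of -0.03 (0.25 under TMM). Erythroblastic island genes gave 2 of 12 higher, Cd5l and Siglec1, with a median of -0.21 (0.07 under TMM), and Hmox1 was at 318 and 595 CPM. Complement genes gave 2 of 11 higher, Vsig4 and Clu, and 98% of the aged Clu UMIs came from 1 cell. Of 16 lipid-associated genes 4 were higher, among them Fabp4, a fatty acid carrier, at 1041 and 84.7 CPM, and Spp1, osteopontin, with 119 UMIs in 7 aged cells and 2 in 2 young cells; 72% of the aged Spp1 UMIs lay in 1 cell.

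Among receptor and metabolic lists, Fc receptor genes gave none of 8 at least 2-fold apart, with Fcgr2a at 792 and 1319 CPM and Fcer1g, the shared signalling chain, at 2515 and 1957. Efferocytosis genes gave none of 5, among them Gas6, which bridges dead cells to TAM receptors (295 and 284 CPM), and Axl, one of those receptors (193 and 180). Signalling genes downstream of CSF1R gave none of 8. Scavenger receptors gave 3 of 11 higher: Olr1, a receptor for oxidised lipoprotein, at 85.7 and 14.8 CPM, Siglec1 at 96.1 and 29.6, and Clec7a, the beta-glucan receptor dectin-1, at 153 and 74.1. Without group 5 only 1 of 10 was higher. Oxidative phosphorylation genes gave none of 22. Glycolysis and hypoxia genes gave 3 of 11 higher and none lower, with a median of -0.16: Pfkfb3, which makes an activator of glycolysis, at 82.2 and 16.9 CPM, the glucose transporter Slc2a1 at 57.9 and 6.35, and Vegfa at 116 and 10.6. Without group 5 only 1 of 9 was higher. Of 15 macrophage transcription factors 3 were higher, Nr4a1, Irf8 and Cebpb, the last at 1905 and 858 CPM.

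**Figure D5:**
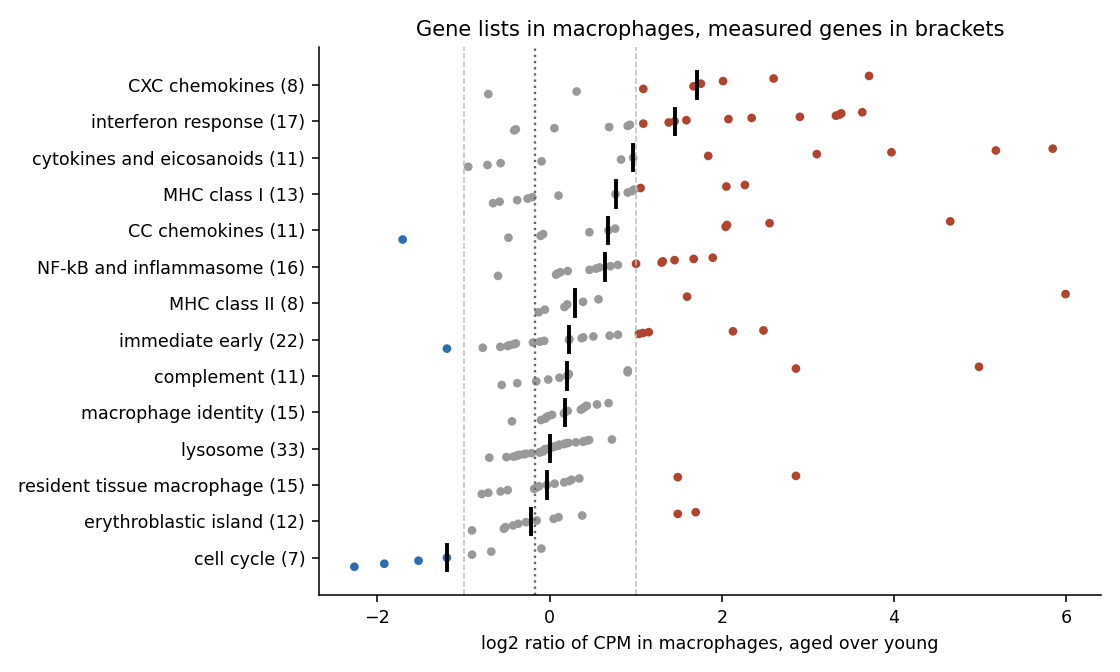
Log2 ratio of CPM, aged over young, in macrophages for the measured genes of 14 lists (points; red at least 2-fold higher, blue at least 2-fold lower), with list medians as black bars and the median of all measured genes (-0.18) dotted. Medians run from 1.71 for CXC chemokines to -1.19 for cell cycle genes, and all lysosome genes lie between the dashed 2-fold lines.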

How the data were processed

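Single-cell 3′ libraries (10x Genomics v3 chemistry, per the labels' protocols) of 1 aged and 1 young rat meniscus sample were used. The deposited matrices hold raw UMI counts per gene and barcode, made by the authors with Cell Ranger 6.1.1 per the submitters' processing notes; the sources used here do not give the build or gene models. Each lists 25399 gene rows; rows of 1 symbol were summed, giving 25237 symbols. The aged library held 8422 barcodes and 47228750 UMIs, the young one 9914 and 65051972.

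The macrophages, gene lists and comparisons were chosen with earlier results of these data known. UMIs were summed over the cells of a library and scaled to CPM. Ratios carry exact conditional binomial intervals and shares Clopper-Pearson intervals, which cover counting error only. Cells were not used as replicates, and there are no p-values. A gene was measured with at least 50 summed UMIs, and 0 UMIs were set against a floor of 3. Monocyte-type cells also needed fewer than 3 UMIs of Cd79a, Cd79b and Ebf1. Named genes were the 12 largest ratios in each direction with at least 100 summed UMIs and 50 CPM in the higher library, leaving out mitochondrial, ribosomal, haemoglobin, immunoglobulin, C1q and uncharacterised genes and genes of the lists for other cell types, the 10 largest in each direction against monocyte-type cells, the markers, Atf3, Cdkn1a, Cdkn2a and up to 6 per list. The library-split genes and Igh-6 were chosen after their values were seen. Groups came from scanpy 1.11.5 and leidenalg 0.10.2 (1500 variable genes, 15 components, 12 neighbours, resolution 0.6). Scaling alternatives used edgeR 4.0.16 and DESeq2 1.42.0 in R 4.3.3 without their tests; other work used Python 3.11.15. The ratio computation was tested on counts drawn independently for each gene from the pooled profile. That simulation leaves out the clustering of UMIs in single cells, so it does not bear on it. Sequences are RefSeq, GRCr8; 23 of 27 windows sought were found.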

Additional observations from a re-analysis of the deposited data

How the results depend on the processing

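The aged share of macrophages was 2.87% when 1000 genes were required and mitochondrial UMIs limited to 10%. Leaving out cells with at least 5 UMIs of another cell type's list left 73 aged macrophages and 5 young ones, or 1.1997% and 0.0570% of kept cells. Under that limit 137 of 1031 measured genes were at least 2-fold higher in the aged library and 70 at least 2-fold lower. The log2 ratios of Spp1 (-1.48), Stmn1 (1.32), Hmgb2 (1.02), Ccl7 (1.45) and the median of the cell cycle list (0.74) changed sign. Without groups 4 and 6, an alternative added after seeing the data, 123 of 2053 measured genes were higher and 70 lower. Hmgb2 (0.26), Dut (0.22) and the cell cycle median (0.088) changed sign there. Fewer cells remained in both cases. TMM and median-of-ratios scaling each left 54 genes lower. Counts of genes higher and lower were 51 and 23 with each cell thinned to 2000 UMIs, 336 and 507 with a minimum of 20 summed UMIs, 53 and 18 with 200, and 807 and 1315 with 1. With at least 5 UMIs of Csf1r and Cx3cr1 in the comparison cells, 304 genes were lower in macrophages in both libraries. Clustering at resolution 0.3 gave 2 groups. Over these settings Il1b stayed between 3.81 and 6.72, RT1-Bb between 5.25 and 6.62, Ifi27l2b between 3.20 and 3.67 and the interferon median between 0.59 and 2.29; Vegfa (0.55), Neurl3 (0.11), Cxcl13 (0.06) and Cd69 (0.57) were smallest in cells with few UMIs of other types. No paired analysis was possible because each age has 1 library. Depth limits the young side most: 38 cells, in which 1 cell often held over 20% of a gene's UMIs.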
